A study of Mus musculus with 4 samples.

Results

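The genes described here are 9 hydrolases of the brush border, the carpet of microvilli on the gut epithelium: the disaccharidases Lct, Sis, Mgam and Treh and the peptidases Anpep, Dpp4, Ace, Enpep and Mep1a. They were taken by symbol, and all 9 were among the 46095 symbols of the deposited table. Total RNA of the colon was sequenced from 21-day-old C57BL/6 mice in 4 libraries, 2 from wild-type mice (WT 1 and WT 2) and 2 from Esr2-/- mice (Esr2-KO 1 and Esr2-KO 2), Esr2 being the gene of estrogen receptor β; the labels name no allele, promoter or Cre. The comparison asks how loss of the receptor changes transcripts of the colon. The labels give no sex, position along the colon or age of weaning, nor whether each library is an animal of its own, so that p-values measure the spread between these libraries, which may be technical. The design text speaks of triplicates, and 2 libraries per genotype were analysed here.

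Brush border hydrolases are anchored in the apical membrane of enterocytes, where they finish digestion within reach of the transporters. Disaccharidases split sugars: lactase (Lct) splits lactose, sucrase-isomaltase (Sis) and maltase-glucoamylase (Mgam) split sucrose and starch fragments, and trehalase (Treh) splits trehalose. Peptidases clip amino acids or dipeptides from peptides, and several of them also process hormones. In the small intestine of rodents, lactase declines and sucrase-isomaltase and trehalase appear as the pups move from milk to solid food. The colon is not the main site of these enzymes.

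Libraries held 30826790 to 33709643 counts, and a count of 3, used as the floor, equals 0.0825 to 0.114 CPM, the unit of library-scaled counts used here. Of 17169 genes that passed the filter on low counts, 2.69% were called, that is, had a Benjamini-Hochberg adjusted p under 0.05 in the quasi-likelihood test of edgeR, with 1.30% higher and 1.39% lower in Esr2-KO. Esr2 itself was counted 21 and 13 times in WT libraries, 6 and 16 times in Esr2-KO (log2 fold change -0.32 ± 0.77 SE, n = 2 per group, edgeR adjusted p = 0.854). These counts were too few to check the genotype labels. Car1, a carbonic anhydrase of colonocytes, ranged from 1081 to 6487 CPM over the 4 libraries. Of 16 other brush border hydrolases listed, 3 (Tmprss15, Akp3 and Enpp7) had 0 counts in all libraries, while 12 passed the filter. Alpi, of the same list, had 20.6 and 32.8 CPM in WT and 3.97 and 0.265 in Esr2-KO. Fabp2, a marker of small intestinal enterocytes, had 716 and 825 CPM in WT and 166 and 19.9 in Esr2-KO. Library Esr2-KO 2 stood apart: 21.2% of its counts (95% Wilson interval 21.16 to 21.19, counting error only) came from 34 genes of pancreatic acinar cells, against 0.0503% to 0.196% in the others. Where 1 library of a genotype is left out, the fit takes its spread from the other genotype.

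Of the 9 hydrolases, 6 passed the filter on low counts (Mgam, Anpep, Dpp4, Ace, Enpep and Mep1a) and 3 did not (Lct, Sis and Treh). Among the 6, Enpep fell in Esr2-KO colon, and none of the other 5 passed the threshold in the edgeR test of all 4 libraries. At an unadjusted p under 0.05, edgeR passed 5 of the 6, all but Dpp4, and 20.6% of all tested genes; by adjusted p, DESeq2 called 5 of the 9 (10.2% of the genes to which it gave an adjusted p), limma-voom 2 (3.53% of all tested) and the likelihood ratio test 2 (7.81%). The fitted values of Mep1a and Mgam lay at about 66.3% and 67.7% of the WT level, those of Ace and Anpep at 1.66 and 1.85 times it, and that of Dpp4 at 87.5%. The 6 tested genes had a median log2 fold change of -0.38, with 2 positive and 4 negative values, while the median over all tested genes was -0.0031. In 5 of the 6 the libraries of the groups did not overlap, 3 lower and 2 higher in Esr2-KO. Among all tested genes the groups did not overlap in 54.7%, with 27.0% higher and 27.7% lower, which is the share to read the 5 of 6 against.

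**Figure D1:**
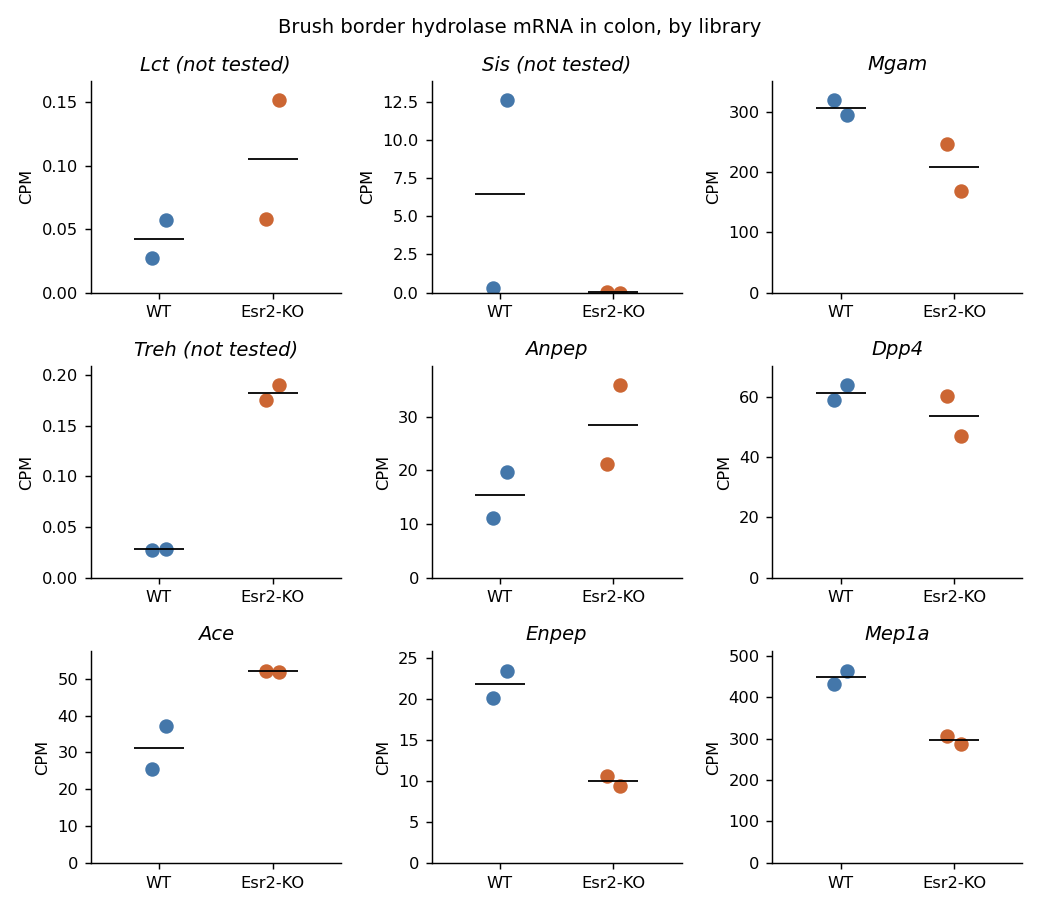
CPM of each of the 9 hydrolases in every library (points), with the group mean as a line; each panel has its own axis from 0. Enpep, Mep1a and Mgam lie lower in both Esr2-KO libraries than in both WT libraries, Ace and Anpep lie higher, and Sis is seen in WT 2 almost alone.

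Levels of different genes were compared per kilobase of coding length. Mep1a was the most abundant hydrolase, with 189 and 204 CPM per kilobase in WT and 134 and 126 in Esr2-KO. Mgam followed with 58.3 and 53.9 in WT and 45.2 and 30.8 CPM per kilobase in Esr2-KO, and Dpp4 with 25.9 and 27.9 in WT and 26.4 and 20.6 in Esr2-KO. These 3 genes kept this order in every library. Mep1a and Mgam together supplied 76.0% to 86.6% of the raw counts of all 9 genes, the lowest share in Esr2-KO 2.

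The next 3 genes were closer to each other. In WT, Ace (6.49 and 9.42 CPM per kilobase) overlapped with both Enpep (7.10 and 8.29) and Anpep (3.85 and 6.80), and Enpep lay just above Anpep. In Esr2-KO they were spread out, with Ace at 13.3 and 13.2, Anpep at 7.33 and 12.4 and Enpep at 3.73 and 3.32 CPM per kilobase. Sis, Treh and Lct came last in both genotypes, and apart from Sis in WT 2 (2.31) none of them exceeded 0.110 CPM per kilobase. With the length of all annotated exons in place of the coding length, the order changed in 1 place: Ace (mean 9.85) then stood above Dpp4 (mean 8.49) in Esr2-KO.

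**Figure D2:**
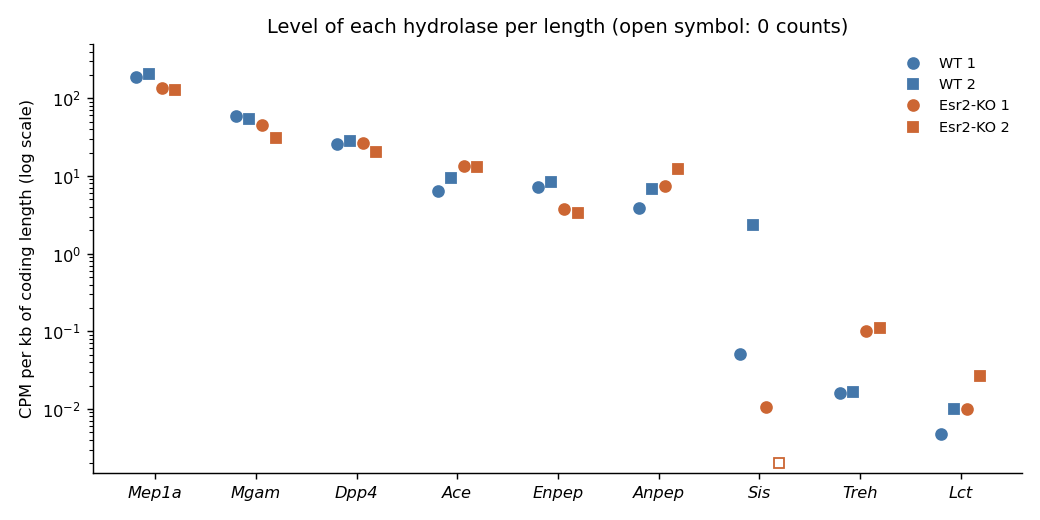
CPM per kilobase of coding length (log axis) for the 9 hydrolases, ordered by the WT mean, with 1 symbol per library. The genes span from 204 for Mep1a in WT 2 down to 0.00475 for Lct in WT 1; the open symbol marks the 0 counts of Sis in Esr2-KO 2.

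Among the disaccharidases, Mgam was the one well above the floor in every library. Maltase-glucoamylase carries a pair of catalytic units that release glucose from the ends of starch chains, and its gene lies on chromosome 6 from 40628831 to 40769123 (GRCm38, plus strand), with 48 exons in its longest coding transcript and no overlapping gene in GENCODE M21. Mgam measured 320 and 295 CPM in WT, compared with 248 and 169 in Esr2-KO. Both Esr2-KO libraries lay below both WT libraries, and Esr2-KO 2 was the lowest. The fitted log2 fold change was -0.56 ± 0.20 (n = 2 per group, SE, 95% interval -1.04 to -0.08, edgeR adjusted p = 0.183). It was -0.31 (adjusted p = 0.515) without Esr2-KO 2 and -0.86 (adjusted p = 0.0194) without Esr2-KO 1, so that the size of the difference depended on which Esr2-KO library was used.

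Sis, on chromosome 3 from 72888557 to 72967863 (minus strand), encodes the enzyme that splits sucrose, and it was found almost entirely in 1 library. WT libraries had 10 and 438 counts, Esr2-KO libraries 2 and 0. WT 2 thus held 45.7 times as much as WT 1 per scaled library total (95% exact counting interval 24.6 to 96.0), and 0 counts in Esr2-KO 2 allow up to 0.114 CPM. Against both Esr2-KO libraries together, WT 1 alone was 8.34 times as high (counting interval 1.78 to 78.3). Sis was removed by the low-count filter in the comparison of all 4 libraries, since WT 2 was the one library above its limit. It passed the filter and was called when WT 1 was left out (log2 fold change -8.43 ± 0.70, edgeR adjusted p = 0.00786), a fit in which WT 2 is the lone WT library and is assumed to vary like the Esr2-KO libraries. With no low-count filter it was called too (-7.46 ± 1.15, edgeR adjusted p = 5.3e-05), in a setting that called 1916 genes in place of 462. That call also rests on the 438 counts of WT 2, against 10 in WT 1. Neither call can tell a difference of genotype from a trait of library WT 2.

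Genes with at least 100 counts and at least 20 times the CPM of each other library numbered 4 in WT 2, 1 in WT 1, 0 in Esr2-KO 1 and 59 in Esr2-KO 2. The other 3 in WT 2 were Cyp3a44, Igkv7-33 and Osr2. Among markers of small intestinal enterocytes, the apolipoprotein gene Apoa1 had 37 counts in WT 2 and at most 1 in each other library. Fabp1, the liver-type fatty acid binding protein, was counted 17 and 40 times in WT libraries and not at all in either Esr2-KO library (at most 0.0876 and 0.114 CPM). Fabp2, the intestinal fatty acid binding protein, was high in both WT libraries, with 716 and 825 CPM against 166 and 19.9 CPM in Esr2-KO (log2 fold change -3.05 ± 0.85, edgeR adjusted p = 0.115). In edgeR's test Fabp2 was called without Esr2-KO 2 (-2.21) and without Esr2-KO 1 (-5.27). It was not called without WT 1 (-3.15) or without WT 2 (-2.94). Over all 4 libraries the likelihood ratio test called Fabp2 (adjusted p = 0.0076), and DESeq2 (0.0656) and limma-voom (0.0691) did not. Of the 8 tested genes of the small intestinal list, 3 had positive and 5 negative values. Rbp2 (log2 fold change 0.73) and Mttp (0.68) were higher in both Esr2-KO libraries than in both WT libraries. Lyz1 (0.23) and Fabp6 (-0.10) overlapped between the groups. Whether material from another stretch of gut contributed to the Sis counts was not tested.

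Treh and Lct stayed at or near the floor. Treh, on chromosome 9 from 44673233 to 44686305 (plus strand), had 1 count in each WT library and 6 and 5 counts in the Esr2-KO libraries. The ratio of Esr2-KO to WT was 6.46 with a 95% exact counting interval from 1.41 to 60.0, and with no low-count filter the edgeR adjusted p was 0.535. The gene overlaps Phldb1 on the opposite strand, and no source used here tells whether counting took strand into account. Lct, on chromosome 1 from 128284756 to 128328318 (minus strand), had 1 and 2 counts in WT libraries and 2 and 4 in those of Esr2-KO, which puts the ratio at 2.35 (counting interval 0.501 to 14.5). A change of lactase mRNA was not detectable at this depth in colon of this age.

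Enpep was the hydrolase that passed edgeR's test over all 4 libraries. It encodes glutamyl aminopeptidase (aminopeptidase A), which removes acidic residues from the amino end of peptides, among them angiotensin II, and it is made by enterocytes, by the kidney and by pericytes of small vessels. The gene lies on chromosome 3 from 129269175 to 129332720 (minus strand) and has a pseudogene, Gm42628, within its span on the other strand. Enpep measured 20.1 and 23.5 CPM in WT, compared with 10.6 and 9.40 in Esr2-KO. The libraries of each genotype lay close together, and those of Esr2-KO reached 48.5% and 43.1% of the WT mean. The fitted log2 fold change was -1.13 ± 0.18 (n = 2 per group, SE, 95% interval -1.55 to -0.71, edgeR adjusted p = 0.0313). Without Esr2-KO 2 it was -1.04 (adjusted p = 0.0366). The call ended when either WT library was left out, at -1.23 (adjusted p = 0.0801) without WT 1 and -0.99 (adjusted p = 0.114) without WT 2.

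Since Enpep is expressed by pericytes as well as epithelium, markers of both were set beside it. Rgs5, a regulator of G protein signalling typical of pericytes, fell from 443 and 400 CPM to 170 and 141 CPM (log2 fold change -1.44 ± 0.16, edgeR adjusted p = 0.0196). Of the 8 pericyte genes it was the 1 called, against 2.69% of all tested genes. The other 7 (Pdgfrb, Notch3, Kcnj8, Abcc9, Cspg4, Higd1b and Ndufa4l2) summed to 119 and 108 CPM in WT versus 101 and 118 in Esr2-KO, which overlap, and none of the 8 was at 0 in all libraries. Enpep had 4.54 and 5.87 counts per 100 Rgs5 counts in WT, as against 6.21 and 6.67 in Esr2-KO. Per 100 counts of Vil1, the microvillus protein villin, it reached 4.36 and 5.0 in WT and 2.18 and 1.99 in Esr2-KO. In bulk tissue, fewer cells of a type and less RNA per cell cannot be told apart, and the part of pericytes in the Enpep difference was not tested.

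**Figure D3:**
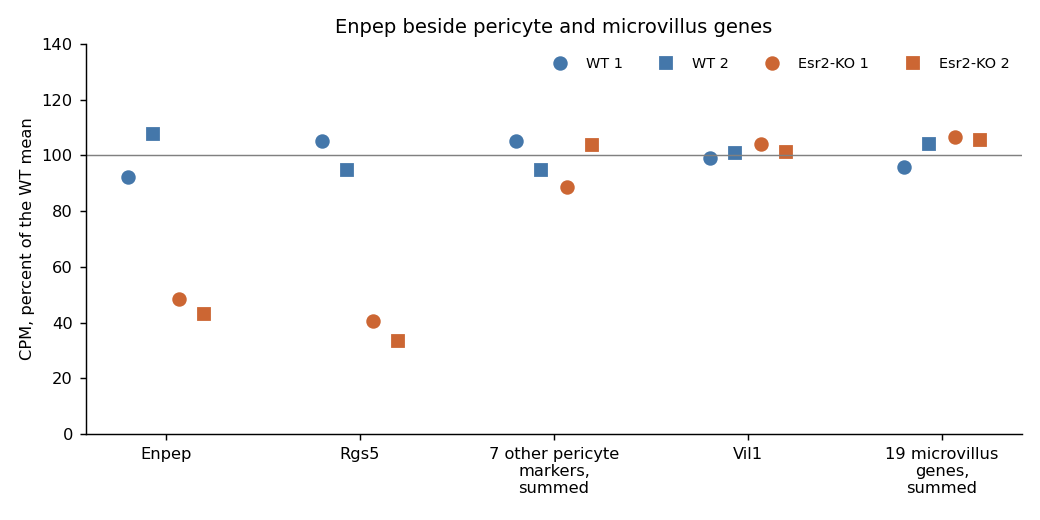
CPM as a percentage of the WT mean in each library, for Enpep, the pericyte gene Rgs5, the sum of 7 other pericyte markers, Vil1 and the sum of 19 microvillus genes. Lgals4 is the largest term of the microvillus sum (3287 to 4203 CPM). Enpep and Rgs5 lie at 33.4% to 48.5% in both Esr2-KO libraries, while the other 3 stay between 88.7% and 107%.

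Mep1a encodes the α subunit of meprin, a secreted and membrane-bound zinc metalloprotease that cuts proteins and peptides in the gut lumen. Its gene lies on chromosome 17 from 43474324 to 43502812 (minus strand), with no overlapping gene. Mep1a measured 431 and 464 CPM in WT, compared with 306 and 288 in Esr2-KO, with a gap between the groups wider than the spread within either. The log2 fold change was -0.59 ± 0.15 (95% interval -0.94 to -0.25, edgeR adjusted p = 0.0875), short of the threshold in edgeR's quasi-likelihood test. Over all 4 libraries DESeq2 (adjusted p = 0.00014) and limma-voom (0.0478) called Mep1a, and the likelihood ratio test did not (0.182). With each library left out in turn the fitted value stayed between -0.65 and -0.52. Per 100 Vil1 counts Mep1a reached 93.3 and 98.9 counts in WT, as against 63.1 and 61.0 in Esr2-KO.

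The β subunit of meprin, Mep1b, forms dimers with the α subunit and holds it at the membrane. It measured 135 and 179 CPM in WT, compared with 88.6 and 50.3 in Esr2-KO. The log2 fold change of -1.17 ± 0.27 did not pass edgeR's quasi-likelihood test over all 4 libraries either (edgeR adjusted p = 0.0786). Over the same libraries DESeq2 (adjusted p = 0.0001) and the likelihood ratio test (0.0054) called Mep1b, and limma-voom did not (0.0650). In edgeR's test it passed with library totals as the scale (adjusted p = 0.0424) or with no low-count filter (7.6e-05). With a library left out, Mep1b was called only without Esr2-KO 1 (-1.63). Mep1b had 31.3 and 38.5 counts per 100 Mep1a counts in WT, 29.0 in Esr2-KO 1 and 17.5 in Esr2-KO 2. The ratio of the subunits was thus lower in both Esr2-KO libraries, and Esr2-KO 1 lay near WT 1. Both subunits have negative values in these data. Neither difference passed the threshold in edgeR's quasi-likelihood test over all 4 libraries, and DESeq2 called both.

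Ace encodes angiotensin-converting enzyme, a dipeptidyl carboxypeptidase of the brush border and of endothelium, and Ace lies on chromosome 11 from 105967945 to 105989964 (plus strand). It measured 25.5 and 37.1 CPM in WT, compared with 52.2 and 51.9 in Esr2-KO. The Esr2-KO libraries were nearly equal and both above WT, where the libraries differed from each other. The log2 fold change was 0.73 ± 0.19 (95% interval 0.29 to 1.18, edgeR adjusted p = 0.0944). It was called without WT 2 (1.05, adjusted p = 0.0464) and fell short without WT 1 (0.49, adjusted p = 0.340). The antisense gene Gm11651 overlaps Ace, and its reads may be included.

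Endothelium is another source of Ace mRNA. The 10 endothelial markers summed to 219 and 235 CPM in WT versus 256 and 262 in Esr2-KO. All 9 tested endothelial genes had positive values, with a median log2 fold change of 0.18 and a range from 0.03 to 0.54, and edgeR called 0 of them, with 2 at an unadjusted p under 0.05 and 1 called by DESeq2 (smallest p for Tie1, 0.54 ± 0.14, edgeR adjusted p = 0.0939, and Egfl7, 0.36 ± 0.15, edgeR adjusted p = 0.233). Over all genes, 20.6% had an unadjusted p under 0.05 and DESeq2 called 10.2%. Cldn5 was near 0, with 2 counts in each WT library and 0 in each Esr2-KO library. Per 100 counts of the endothelial gene Pecam1, Ace reached 41.9 and 54.5 counts in WT, as against 74.2 and 72.2 in Esr2-KO. The part of endothelium in the Ace difference was not tested.

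Anpep encodes aminopeptidase N, which removes neutral residues from the amino end of peptides and is also found on myeloid and stromal cells. The gene lies on chromosome 7 from 79821803 to 79861059 (minus strand) and overlaps Gm44974 on the same strand. Anpep measured 11.2 and 19.7 CPM in WT, compared with 21.2 and 35.9 in Esr2-KO. WT 2 and Esr2-KO 1 were close, and Esr2-KO 2 was the highest. The log2 fold change was 0.89 ± 0.33 (95% interval 0.09 to 1.68, edgeR adjusted p = 0.203). Without Esr2-KO 2, where acinar transcripts abound, it was 0.47, and without Esr2-KO 1 it was 1.22. Leaving out a WT library moved it as well, to 0.53 without WT 1 and 1.37 without WT 2. Another ectopeptidase, the γ-glutamyltransferase Ggt1, also peaked in Esr2-KO 2, with 48.7 CPM against 2.42 to 9.08 in the others. Its log2 fold change was 2.31 (edgeR adjusted p = 0.203), 0.58 without Esr2-KO 2 and 3.09 without Esr2-KO 1. For Ggt1 it was 1.65 without WT 1 and 3.58 without WT 2. The part of pancreatic RNA in these values was not tested. The 8 myeloid markers summed to 481 and 519 CPM in WT versus 521 and 439 in Esr2-KO.

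Dpp4 encodes dipeptidyl peptidase, which releases dipeptides that end in proline or alanine and inactivates incretin hormones, and which T cells and stromal cells carry as well. The gene lies on chromosome 2 from 62330073 to 62412231 (minus strand) and overlaps the antisense gene Gm13561. Dpp4 measured 59.0 and 63.7 CPM in WT, compared with 60.3 and 47.0 in Esr2-KO, and the groups overlapped. The log2 fold change was -0.19 ± 0.15 (95% interval -0.55 to 0.16, edgeR adjusted p = 0.504), an interval that holds both a decrease and a small increase. It was -0.02 without Esr2-KO 2. The 7 T cell markers were sparse, Trac at 0 in every library, with sums of 12.5 and 17.1 CPM in WT versus 11.1 and 5.38 in Esr2-KO, the lowest in the library in which Dpp4 was lowest. Of these, 5 were tested and 0 called by edgeR or DESeq2, 1 having an unadjusted p under 0.05, with Cd8a (-1.15 ± 0.47, edgeR adjusted p = 0.231) and Lck (-1.07 ± 0.46, edgeR adjusted p = 0.257) in front. Over all genes, 20.6% had an unadjusted p under 0.05 and DESeq2 called 10.2%. The part of T cells in the Dpp4 values was not tested.

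**Figure D4:**
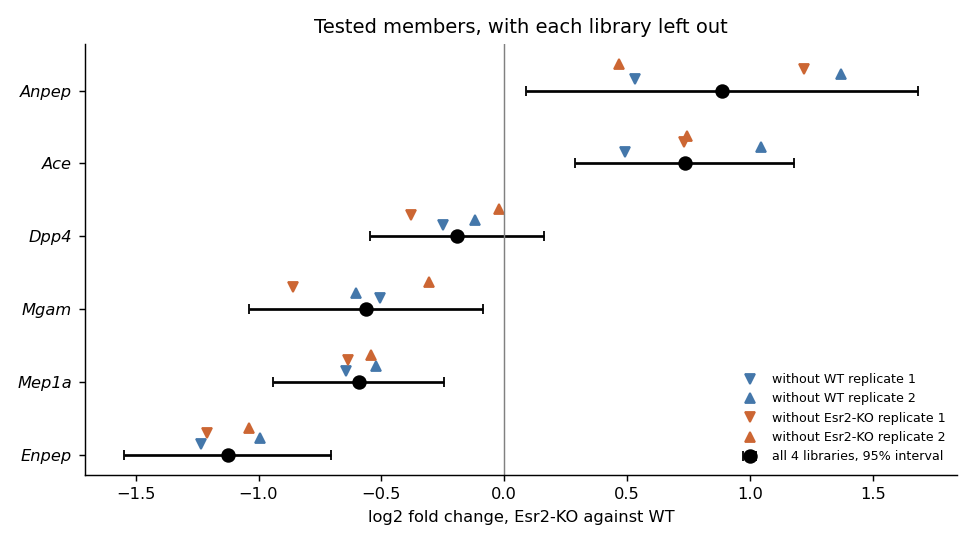
Log2 fold change of Esr2-KO against WT for the 6 tested hydrolases, with the 95% interval of the fit over all 4 libraries (black, not adjusted for the number of genes) and the value with each library left out (triangles). Enpep lies lowest, between -1.23 and -0.99 with a library left out. Mgam shifts most when an Esr2-KO library is left out, Anpep shifts with a library of either genotype left out, and all 6 keep their sign.

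The other brush border hydrolases had values of either sign, 6 positive and 6 negative. Of 16 genes 12 were tested by edgeR, and 1 rose and 0 fell, with a median log2 fold change of 0.01. Of the 12, 5 had an unadjusted p under 0.05, and DESeq2 called 3. Among all genes edgeR called 2.69%, 20.6% had an unadjusted p under 0.05 and DESeq2 called 10.2%. The 1 that rose was Nt5e, the ectonucleotidase that makes adenosine from AMP, from 54.0 and 81.0 CPM to 188 and 150 CPM (1.32 ± 0.22, edgeR adjusted p = 0.0350, and 0.0767 without WT 1). Large negative values, short of the threshold in edgeR's quasi-likelihood test over all 4 libraries, belonged to Dpep1 and Alpi. Dpep1, a dipeptidase of the apical membrane, had 368 and 340 against 154 and 75.6 CPM (-1.62 ± 0.31, edgeR adjusted p = 0.0521). Alpi, intestinal alkaline phosphatase, had 20.6 and 32.8 against 3.97 and 0.265 CPM (-3.61 ± 0.87, edgeR adjusted p = 0.0850). Over the same libraries Dpep1 was called by DESeq2 (adjusted p = 0.0151), limma-voom (0.0391) and the likelihood ratio test (0.00043). It was also called with acinar genes left out (edgeR adjusted p = 0.0427). Alpi was called by the likelihood ratio test (adjusted p = 0.0060), and not by DESeq2 (0.116) or limma-voom (0.0592). Both were called when either Esr2-KO library was left out. Dpep1 then stood at -1.19 without Esr2-KO 2 (edgeR adjusted p = 0.0130) and -2.22 without Esr2-KO 1 (adjusted p = 0.00012), and Alpi at -2.74 (adjusted p = 0.0035) and -6.63 (adjusted p = 1.2e-05). Neither was called without a WT library. For both, Esr2-KO 2 was the lowest library and Esr2-KO 1 lay between it and WT. Dpep1, Alpi and Mep1b were named after their values were seen.

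None of the genes listed with the microvillus passed edgeR's test over all 4 libraries. Of 19 genes, 18 were tested and 0 were called, 8 with positive and 10 with negative values and a median of -0.05. An unadjusted p under 0.05 was found for 3 (against 20.6% of all tested genes), and DESeq2 called 2 (against 10.2% of all genes). Vil1 stood at 462 and 470 CPM in WT versus 485 and 472 in Esr2-KO. The smallest p values belonged to Tmigd1, a membrane protein of mature enterocytes (93.7 and 169 against 16.7 and 2.92 CPM, -3.73 ± 0.72, edgeR adjusted p = 0.0527), and to the actin bundler Pls1 (-0.45 ± 0.16, edgeR adjusted p = 0.186). Tmigd1 was called without Esr2-KO 2 (-2.98, edgeR adjusted p = 0.0034), without Esr2-KO 1 (-5.49, adjusted p = 1.7e-05) and with acinar genes left out (-3.72, adjusted p = 0.0428), and not without a WT library. Summed over the 19 genes the level was 7603 and 8267 CPM in WT versus 8455 and 8388 in Esr2-KO. A single gene of the list, Lgals4, supplied 3287 and 3734 CPM of this in WT and 4148 and 4203 in Esr2-KO. The sum over the 9 hydrolases was 867 and 916 CPM in WT versus 698 and 601 in Esr2-KO, most of it Mep1a and Mgam.

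Among transporters that take up the products of these enzymes, 2 of 9 tested rose and 0 fell in edgeR's test, out of 10 listed, with a median of 0.53. An unadjusted p under 0.05 was found for 5, and DESeq2 called 3. The shares over all genes were 2.69% called by edgeR, 20.6% at an unadjusted p under 0.05 and 10.2% called by DESeq2. Slc15a1, the proton-coupled carrier of dipeptides and tripeptides, rose from 27.5 and 47.9 CPM to 156 and 158 CPM (2.06 ± 0.25, edgeR adjusted p = 0.0204). Slc36a1, a proton-coupled amino acid carrier, rose from 23.2 and 45.4 CPM to 162 and 188 CPM (2.35 ± 0.30, edgeR adjusted p = 0.0223). Both calls held with each library left out in turn. Slc5a1, the sodium-glucose cotransporter, had 58.7 and 77.7 CPM in WT versus 115 and 114 in Esr2-KO but stayed short of the threshold (0.75 ± 0.15, edgeR adjusted p = 0.0579), and it was called without Esr2-KO 1 (adjusted p = 0.0283) or WT 2 (0.0361). Slc3a1, the heavy subunit of a cystine carrier, had a large negative value (-3.03 ± 0.77, edgeR adjusted p = 0.0949). In edgeR's test it was called without Esr2-KO 2 (-2.20) and without Esr2-KO 1 (-5.29). It was not called without WT 1 (-2.97) or without WT 2 (-3.08).

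**Figure D5:**
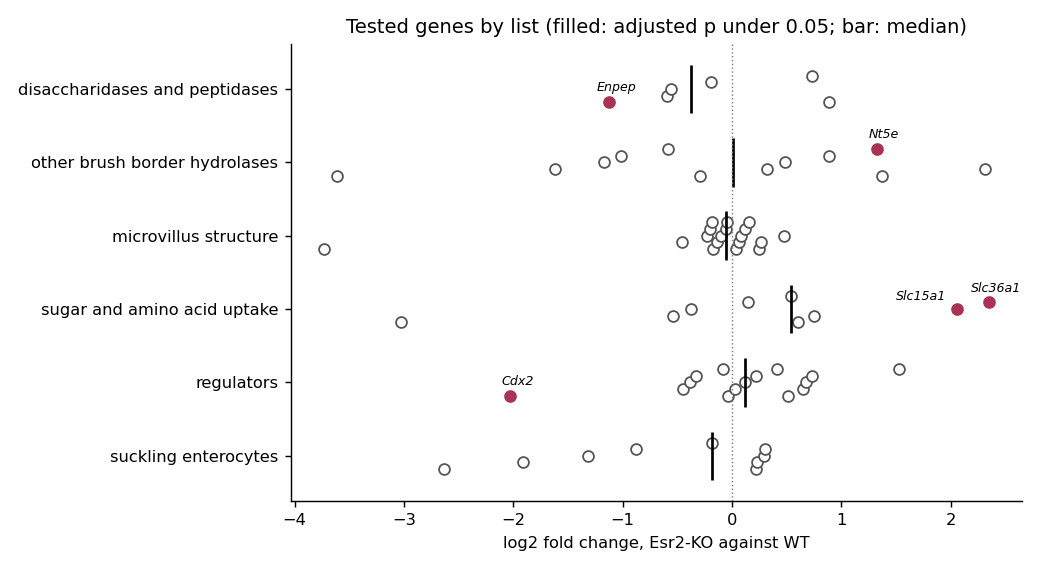
Log2 fold change of Esr2-KO against WT for each tested gene of 6 lists; filled symbols are genes called at an adjusted p under 0.05 and the vertical bar is the list median. Enpep is the called gene among the disaccharidases and peptidases, and microvillus genes other than Tmigd1 lie close to 0.

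Among transcription factors that act on brush border genes, Cdx2 fell and 14 of 15 tested were not called, with a list median of 0.12. Over all tested genes 2.69% were called. Cdx2, a homeobox factor of intestinal identity and a known activator of the Sis promoter, fell from 199 and 164 CPM to 60.9 and 27.9 CPM (-2.03 ± 0.34, edgeR adjusted p = 0.0373). Its call ended without WT 1 (adjusted p = 0.105) and without WT 2 (0.0565). Hnf4a, a nuclear receptor of the gut epithelium, stood at 699 and 664 CPM in WT versus 880 and 1062 in Esr2-KO (0.51 ± 0.19, edgeR adjusted p = 0.203). These values are given beside the hydrolases, and whether any factor accounts for a hydrolase was not tested.

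The promoters of the hydrolases show how their sequences differ where such factors could bind. RefSeq starts on GRCm38.p6 matched all 9 genes, with 2 starts for Ace, of which the downstream one within the gene serves the testis form. This gave 10 windows of the 250 bases before a start. The Mep1a start lies inside the RefSeq span of that gene, which ends at 43504143. The Anpep start lies inside the GENCODE span of Anpep, which ends at 79861059. For these genes the sequence before the outer end was not searched. Shown are Enpep, which fell, Mgam and Mep1a, the abundant genes with negative values, and Sis. Each runs 5′ to 3′ on the strand of the gene, and capitals mark the CDX core TTTAT, searched on both strands. The windows are chr3:129332750-129332999 (minus strand) for Enpep, chr6:40628581-40628830 (plus) for Mgam, chr17:43502774-43503023 (minus) for Mep1a and chr3:72967864-72968113 (minus) for Sis.
Enpep: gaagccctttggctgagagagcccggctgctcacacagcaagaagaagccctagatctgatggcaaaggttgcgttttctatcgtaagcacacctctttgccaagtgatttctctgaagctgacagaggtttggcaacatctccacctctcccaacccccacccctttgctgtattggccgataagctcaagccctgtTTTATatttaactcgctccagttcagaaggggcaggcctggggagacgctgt
Mgam: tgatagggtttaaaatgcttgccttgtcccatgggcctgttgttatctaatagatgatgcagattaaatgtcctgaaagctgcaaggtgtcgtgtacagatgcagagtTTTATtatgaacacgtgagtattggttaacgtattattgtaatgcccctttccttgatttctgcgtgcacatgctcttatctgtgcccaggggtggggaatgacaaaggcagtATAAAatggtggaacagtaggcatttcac
Mep1a: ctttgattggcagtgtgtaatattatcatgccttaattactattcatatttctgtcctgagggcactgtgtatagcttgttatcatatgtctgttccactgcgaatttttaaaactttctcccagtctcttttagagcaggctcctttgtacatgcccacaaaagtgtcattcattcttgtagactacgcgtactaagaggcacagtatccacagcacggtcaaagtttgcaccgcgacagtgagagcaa
Sis: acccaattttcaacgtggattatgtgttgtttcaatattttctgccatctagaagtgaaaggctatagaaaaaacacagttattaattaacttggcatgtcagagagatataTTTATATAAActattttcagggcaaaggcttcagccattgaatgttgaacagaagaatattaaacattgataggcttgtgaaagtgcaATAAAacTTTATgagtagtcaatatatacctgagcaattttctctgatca

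The CDX core occurred 4 times in the Sis window, 2 times in that of Mgam, 1 time in that of Enpep and not at all in that of Mep1a. Several of these matches overlap the TATA box motif TATAAA, whose reverse complement contains the CDX core: 2 of the 4 in Sis, 1 of the 2 in Mgam and the 1 in Enpep. Of the 10 windows 6 held a CDX core, against 37.3% of all 32851 promoter windows of the same length. The full palindromic estrogen response element was in none of the 10 and in 0.0639% of all, and its half-site AGGTCA was in 2, those of Treh and of the testis form of Ace, and in 14.0% of all. GC content was 72.8% for Anpep, 67.2% for the somatic start of Ace and 58.0% for the start of its testis form. It was 52.4% for Enpep, 43.6% for Dpp4, 42.4% for Mgam and 41.6% for Mep1a. Among the untested genes it was 31.6% for Sis, 53.2% for Treh and 42.8% for Lct. Of these, Treh and Lct had more counts in Esr2-KO than in WT, and Sis had fewer. The median of all windows was 52.4%. A match is a run of letters and not a measured site.

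Genes of the suckling enterocyte, the milk-fed cell type that weaning replaces, gave no call among 9 tested by edgeR, with a median of -0.18. Of these, 3 had an unadjusted p under 0.05 (against 20.6% of all tested genes) and DESeq2 called 2 (against 10.2% of all genes). Amn, a part of the endocytic receptor for vitamin uptake (-2.63 ± 0.52, edgeR adjusted p = 0.0533), and Prdm1, the repressor that holds the fetal and suckling programme (-1.32 ± 0.33, edgeR adjusted p = 0.0926), came first by p. Amn was called without Esr2-KO 1 (-3.14, edgeR adjusted p = 0.0101). Amn stood at 3.0 and 6.43 CPM in WT versus 0.964 and 0.531 in Esr2-KO, and Prdm1 at 11.3 and 6.38 against 3.21 and 3.90 CPM. Fcgrt, the neonatal receptor for antibodies of milk, stood at 62.9 and 83.0 CPM in WT versus 82.4 and 96.8 in Esr2-KO.

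Among cell type markers, the 7 general epithelial genes summed to 9013 and 8036 CPM in WT versus 9315 and 9344 in Esr2-KO, with 0 of 7 called by edgeR, 1 at an unadjusted p under 0.05 and 2 called by DESeq2 (smallest p for Krt20, -0.65 ± 0.23, and Cdh1, 0.42 ± 0.18, edgeR adjusted p = 0.183 and 0.246). For every list here, the shares over all genes were 2.69% called by edgeR, 20.6% at an unadjusted p under 0.05 and 10.2% called by DESeq2. Of 7 colonocyte genes 5 had an unadjusted p under 0.05 and DESeq2 called 4 (Car1, Car4, Slc26a3 and Scnn1b). By edgeR, Scnn1b rose (1.20 ± 0.22, edgeR adjusted p = 0.0470) and Car1 fell (-2.11 ± 0.39, edgeR adjusted p = 0.0469). The Scnn1b call ended without WT 1, without WT 2 or without Esr2-KO 2 (adjusted p = 0.208, 0.0834 and 0.0777), and that of Car1 without Esr2-KO 2 (0.0560). Of 8 tested small intestinal genes edgeR called 0 and DESeq2 4, and 5 had an unadjusted p under 0.05, with a median of -0.60 (smallest p for Rbp2, 0.73 ± 0.15, and Fabp1, edgeR adjusted p = 0.0607 and 0.0621), and Rbp2 was called without Esr2-KO 1 (adjusted p = 0.0202). The small intestinal list summed to 785 and 945 CPM in WT versus 245 and 97.8 in Esr2-KO, in WT most of it Fabp2. Of 7 fibroblast genes 0 were called by edgeR or DESeq2 and 1 had an unadjusted p under 0.05, with a median of -0.11 (Pdgfra, -0.29 ± 0.11, and Col1a1, 0.30 ± 0.16, edgeR adjusted p = 0.203 and 0.344). Of 8 myeloid genes 0 were called by edgeR or DESeq2 and 3 had an unadjusted p under 0.05, with a median of 0.07 (Cd68, 0.55 ± 0.17, and Adgre1, -0.46 ± 0.18, edgeR adjusted p = 0.138 and 0.208). In the acinar list all 23 tested genes were higher in both Esr2-KO libraries than in both WT libraries and had an unadjusted p under 0.05. Among all tested genes, 27.0% were higher without overlap. The median of 11.46 owes most of its size to Esr2-KO 2. The acinar sum was 247398 CPM there, 1890 in Esr2-KO 1 and 466 and 525 in WT. The likelihood ratio test called 23 of the acinar genes (7.81% of all tested genes). EdgeR's quasi-likelihood test called 1, the trypsin inhibitor Spink1 (1.30 ± 0.16, edgeR adjusted p = 0.0204).

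The gene with the profile most like each tested hydrolase was found among 12133 other genes whose mean log2 CPM was 2 or more, by the Euclidean distance of centred log2 CPM over the 4 libraries. For Mgam it was Ptprh (distance 0.018), for Mep1a Echdc1 (0.022), for Dpp4 Zfp217 (0.013), for Ace Muc3 (0.037), for Enpep Mier3 (0.070) and for Anpep Phf21b (0.224). Many genes lay near: 2492 genes were within 0.3 of Dpp4, 664 of Mep1a, 501 of Mgam, 174 of Ace, 60 of Enpep and 5 of Anpep. Mier3, the nearest to Enpep, measured 70.0 and 82.6 CPM in WT, compared with 39.2 and 33.2 in Esr2-KO.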

How the data were processed

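The authors deposited counts per gene symbol for 4 libraries, raw whole numbers by their values. Per the labels' protocols, Trizol-extracted total RNA was depleted of ribosomal RNA and made into directional libraries, and alignment used HISAT2 and mm10, per the submitters' processing notes. For the counting program, annotation and strand setting, the sources used here say nothing. Libraries held 30826790 to 33709643 counts.

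Of 46095 symbols, 20580 had no count. Genes were kept with filterByExpr (minimum count 10, minimum total 15), scaled by TMM and tested in R 4.3.3 by edgeR 4.0.16 (glmQLFit, glmQLFTest, two-sided, 2 residual degrees of freedom), with Benjamini-Hochberg adjustment over 17169 genes and a threshold of 0.05. Standard errors came from the F statistic. CPM uses TMM-scaled totals. Replicate libraries differed beyond sampling noise (chi-square over degrees of freedom 39.7 for WT, 478 for Esr2-KO). The procedure was tested on simulated data. Coordinates, exons and lengths are from GENCODE M21 (GRCm38, counted from 1), and promoter windows from RefSeq.

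The genes and lists were chosen with earlier results of these data known. The rule for naming took the 9 hydrolases, Esr2, of each list up to 4 genes called or otherwise the 2 with the smallest p, and the nearest gene to each tested hydrolase. Mep1b, Dpep1, Alpi, Ggt1, Vil1, Slc5a1, Slc3a1, Hnf4a, Fcgrt, Pecam1, Cldn5, Apoa1, Fabp2, Car4, Slc26a3 and Trac and the genes high in WT 2 alone were added after their values were seen. So were Tmprss15, Akp3, Enpp7, Lgals4, Mttp, Lyz1 and Fabp6. Alternatives were other scaling factors, filters, tests (DESeq2 1.42.0, limma-voom of limma 3.58.1, edgeR's likelihood ratio test), a threshold of 0.1, a block for the replicate number, leaving out each library, and the acinar or the 50 most abundant genes left out. Some genes of the lists are not reported here by name. Intervals of counts cover counting error only.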

Additional observations from a re-analysis of the deposited data

How the results depend on the processing

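Called genes numbered 462 in all, 1 among the 9 hydrolases (Enpep) and 7 in the other lists, acinar genes left aside. In that order they numbered 699, 1 and 17 with library totals as the scale, 1916, 5 and 27 with no low-count filter, 1693, 5 and 27 with DESeq2, 1341, 2 and 22 with the likelihood ratio test, 606, 2 and 13 with limma-voom, and 1245, 3 and 22 at a threshold of 0.1. With acinar genes left out, 12 genes of the other lists were called. With the replicate number as a block, 0 of the hydrolases were called (Enpep -1.12, adjusted p = 0.0512) and 490 genes in all. Deviations of WT 1 and Esr2-KO 1 from their group means correlated at -0.064 over genes. With 2 libraries per genotype this value cannot tell whether same-numbered libraries were paired or shared a batch. With a library left out the counts ranged from 165 to 1804 in all (165 without WT 1, 1804 without Esr2-KO 1), from 1 to 3 among the hydrolases and from 5 to 26 in the other lists. The hydrolases called then were Sis without WT 1, Ace without WT 2, Anpep, Enpep and Mgam without Esr2-KO 1, and Enpep without Esr2-KO 2. The share of calls that were higher in Esr2-KO was 48.3%, and 30.0% with library totals, which shifted the median of all genes to -0.17. Esr2 ranged from -1.42 to 0.35 with a library left out, and turned to 0.04 without WT 1 and to 0.35 without Esr2-KO 1. None of the 6 tested hydrolases changed direction under any of 16 alternatives. Enpep ranged from -1.28 to -0.99, Mep1a from -0.75 to -0.52, Mgam from -0.86 to -0.31, Ace from 0.49 to 1.05, Anpep from 0.47 to 1.37 and Dpp4 from -0.38 to -0.02. Why the calls differ was not tested. Depth limits Lct and Treh, which stayed within 6 counts per library.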
